A study of Homo sapiens with 2 samples.

Results

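BT-474 and MDA-MB-453, established breast cancer lines of luminal character that were captured and sequenced together, were compared gene by gene. The study profiled 6 breast cancer lines by droplet-based 3′ single-cell RNA sequencing, to find surface proteins that separate subpopulations of cancer cells. Each line was stained with its own lipid-anchored multiplexing oligo, and the lines were mixed in equal ratios into 2 pools of 3 lines. BT-474 shared its pool, and its capture, with MDA-MB-453 and MDA-MB-231. All lines were cultured without a treatment named in the labels, BT-474 at passage p3, MDA-MB-453 at p5 and MDA-MB-231 at p4, and each line was 1 culture. With 1 culture a line there was no replicate of either line, so no difference below was tested and no p-value is given. Intervals cover counting error only, at 95%.

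BT-474 cells were the barcodes with suffix 1, marked by oligo CMO303, and MDA-MB-453 cells those with suffix 3, marked by CMO302. A barcode was kept with at least 1000 gene UMIs, at least 500 genes, at most 20% mitochondrial UMIs and at least 80% of its oligo UMIs from its leading oligo. This kept 2231 of 2954 BT-474 barcodes and 3418 of 3708 MDA-MB-453 barcodes, 5649 of the 17605 barcodes deposited for the series. The mitochondrial limit removed 687 BT-474 barcodes (23.3%) and 257 MDA-MB-453 barcodes (6.93%). The kept cells held 68.9 M and 75.5 M gene UMIs, with medians of 28472 and 20274 UMIs and of 14.6% and 9.86% mitochondrial UMIs. No barcode was shared within the capture, and 22 barcodes of this capture also occurred in the other. Doublets and mixed cells were kept in the main values (14 BT-474 and 47 MDA-MB-453 cells).

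The labels name the lines of the pool but not the oligo of each, so the names rest on marker genes and their levels are a description. All 12 BT-474 markers, including ESR1 and PGR for the hormone receptors, were highest in the cells called BT-474. Of 12 markers of MDA-MB-453, a line described as of apocrine type, 4, FGFR4, TFAP2B and SPDEF among them, were highest in the cells of that name, and 7 were highest in BT-474. Some of these 7, PIP among them, were below 10 CPM in both lines. At 10 CPM or more and 2-fold between the 2 lines, 3 of the 12 were higher in BT-474 and 4 in MDA-MB-453. The apocrine secretory gene PIP was at 4.69 CPM in BT-474 and 3.998 CPM in MDA-MB-453. ALOX15B and DHRS2, also taken as apocrine markers, were at 0.331 and 2.46 CPM in MDA-MB-453 and at 22.5 and 129 CPM in BT-474. PIP, ALOX15B and DHRS2 thus did not bear out the apocrine description. CLCA2, AZGP1 and FKBP5, of the apocrine and hormone-responsive list described below, were higher in MDA-MB-453. That list was split, with 8 genes higher in BT-474 and 5 in MDA-MB-453. Markers of other cell types were low in both lines: fibroblast markers summed to 14.1 and 16.8 CPM, nearly all of it COL1A1, endothelial markers to 1.58 and 0.132 CPM, immune markers to 1.35 and 1.36 CPM and basal or myoepithelial markers to 4.31 and 3.36 CPM, with PTPRC, CD3E, DCN and KRT5 at 0. MDA-MB-231, the triple-negative line of mesenchymal type in the same capture, is given beside both as the level that free RNA in the droplets can give to a gene a line lacks. Free RNA was estimated from the markers of MDA-MB-231, with a median of 5.15% of the UMIs of BT-474 cells and 3.79% of those of MDA-MB-453 cells. Single markers gave 1.62% to 66.9% and 2.58% to 52.9%, so these estimates are rough. With free RNA subtracted at the medians, the ratios of 63 of 259 named genes moved by over 1.5-fold, all of them further from 1. The intervals of ratios cover counting error only and not this background.

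Luminal breast cancer cells keep features of the hormone-sensing and secretory cells that line the mammary duct. The oestrogen receptor ESR1 is a ligand-activated transcription factor, and the progesterone receptor PGR is among its targets. FOXA1 and GATA3 open chromatin for ESR1 and help to set the luminal programme. ERBB2 (HER2) is a receptor tyrosine kinase whose gene lies at 17q12, a region that BT-474 is known to carry in many copies, together with parts of 17q23 and 20q13.

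Of 36601 genes in the matrix, 8764 reached 10 CPM (UMIs per 1000000 UMIs of the line) in at least 1 of the lines and are called measured. On the scale of log2(CPM + 1), 928 of them (10.6%) were at least 2-fold higher in BT-474 and 1610 (18.4%) at least 2-fold higher in MDA-MB-453, while 6226 (71.0%) lay within 2-fold. Called genes are those past 2-fold on this scale, while the fold values and intervals beside named genes are ratios of CPM with nothing added. At 4-fold the directions were near balance, with 399 genes (4.55%) higher in BT-474 and 388 (4.43%) in MDA-MB-453, and at 8-fold 213 (2.43%) and 148 (1.69%). The surplus in MDA-MB-453 was thus made of small differences. The median log2 ratio of BT-474 over MDA-MB-453 over all measured genes was -0.25, and some genes took unequal shares of the 2 totals. Mitochondrial genes took 14.3% of the BT-474 UMIs and 10.2% of the MDA-MB-453 UMIs, the long noncoding RNA MALAT1 2.88% and 1.495%, and RPL19, a ribosomal protein gene of 17q12, 2.70% and 0.200%. Scaling by trimmed means (TMM) moved the median by 0.12 and gave 1082 genes higher in BT-474 and 1325 in MDA-MB-453. With mitochondrial genes, 17q12 genes (RPL19 included) and MALAT1 left out of the total, a choice made after seeing the data, the counts were 1306 and 1279, with a shift of the median by 0.19. BT-474 held 36.6% of the calls with the full total, 44.95% with TMM and 50.5% with the reduced total. In no setting tried did a call turn to the other direction, and the ratio interval of every call lay away from 1. Among the genes named below, the calls of AGR2, ANXA9, AURKA, DANCR, ERRFI1, EVPL, HLA-B, IGF1R, INTS2, KIF2C, LDHA, MAGED1, MT-CYB, MT1X, POLA1, SLC7A5 and VIM fell just or clearly within 2-fold under at least 1 other scaling, pseudocount or limit on cells. The calls of ELF5 and HPGD were lost with at most 10% mitochondrial UMIs and at least 5000 UMIs a cell. Their ratios stayed past 2-fold, but neither gene reached 10 CPM under those limits. Across measured genes the Pearson correlation of log2(CPM + 1) between the lines was 0.755. This is a description in which genes are not independent and both lines share a capture.

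**Figure D1:**
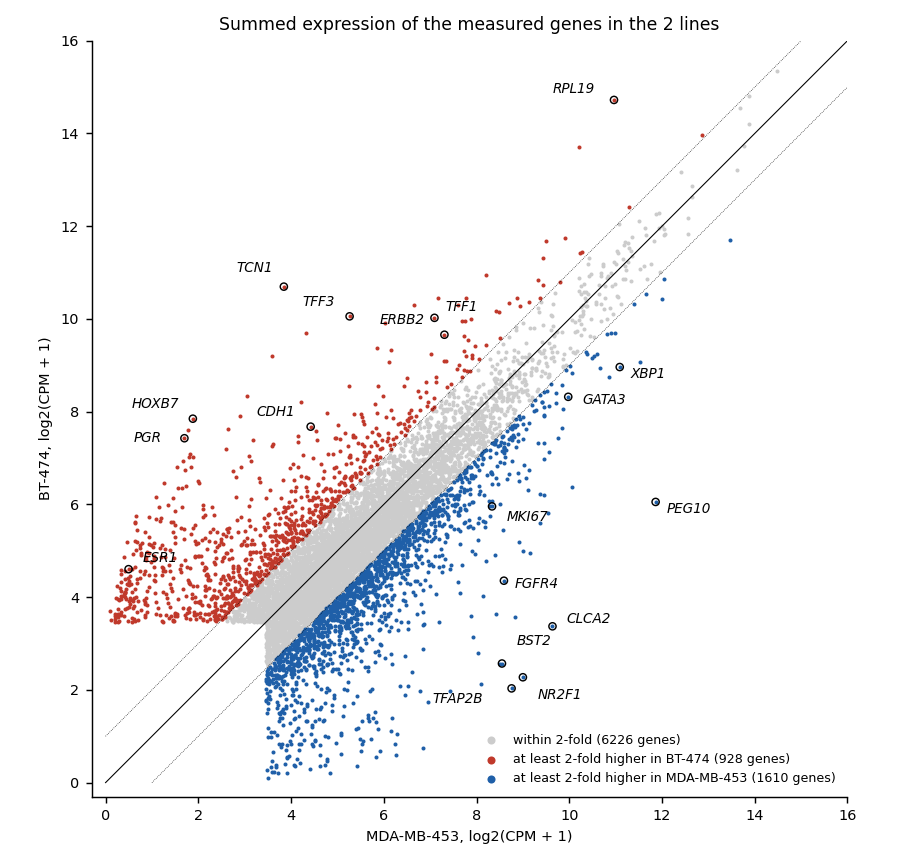
Level of each measured gene in MDA-MB-453 (x axis) and BT-474 (y axis), both as log2(CPM + 1), with 1 point a gene, a solid line of equality and dotted lines at 2-fold. The 928 genes higher in BT-474 reach up to TCN1 and RPL19, and the 1610 genes higher in MDA-MB-453 reach down to NR2F1 and TFAP2B.

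**Figure D2:**
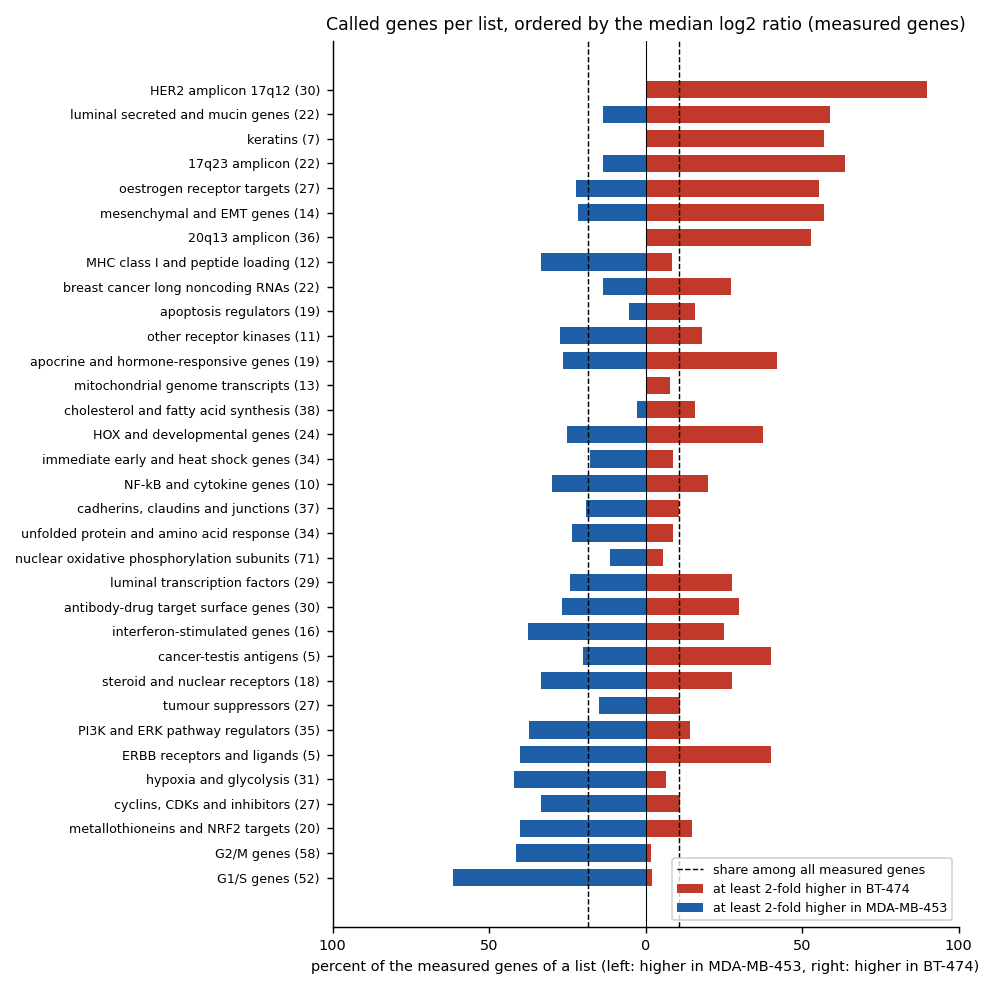
Percent of the measured genes of each of 33 gene lists that were at least 2-fold higher in BT-474 (right) or in MDA-MB-453 (left), with the number measured in brackets and dashed lines at the shares over all measured genes (10.6% and 18.4%). Lists are ordered by their median log2 ratio, from the 17q12 genes at 2.46 to the G1/S genes at -1.11.

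The steroid and nuclear receptors, which sense hormones and other small ligands, split between the lines. Of 18 measured genes of 32 listed, 5 (27.8%) were higher in BT-474 and 6 (33.3%) in MDA-MB-453. Their median log2 ratio was -0.52, and the shares over all measured genes were 10.6% and 18.4%. ESR1 (GRCh38, chr6:151656691-152129619, plus strand) was at 23.3 CPM in BT-474 and 0.4104 CPM in MDA-MB-453, 56.8-fold higher (95% interval 39.8 to 83.9). PGR (chr11:101029624-101130524, minus strand) was at 171 CPM in BT-474 and 2.25 CPM in MDA-MB-453, 76.03-fold higher (65.3 to 88.99). The MDA-MB-453 value of PGR lay beside the 2.04 CPM of MDA-MB-231, a line without the receptor, and is read as background, so the size of this ratio depends on it. With free RNA subtracted, the log2 ratio of PGR was 7.38 in place of 5.73. The thyroid hormone receptor gene THRA, a neighbour of ERBB2, was at 112 CPM against 6.53 CPM, 17.1-fold higher in BT-474 (15.6 to 18.8), and the retinoic acid receptor gene RARA, further along the same region, was at 27.5 against 4.197 CPM.

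The orphan receptor gene NR2F1 was at 3.83 CPM in BT-474 and 511 CPM in MDA-MB-453, 133-fold higher (118 to 151), and its relative NR2F2 at 76.5 and 212 CPM. The glucocorticoid receptor gene NR3C1 was at 5.62 CPM in BT-474 and 86.7 CPM in MDA-MB-453, 15.4-fold higher (13.9 to 17.1), with 131 CPM in MDA-MB-231. ESR1 and PGR thus marked BT-474, and NR2F1 and NR3C1 marked MDA-MB-453 of the pair. The orphan receptor gene NR4A2 was 6.65-fold higher in MDA-MB-453 (6.11 to 7.25).

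Shares of cells with a UMI, after thinning every cell to 10000 UMIs, showed how these sums were spread over cells. This left out 10 BT-474, 31 MDA-MB-453 and 25 MDA-MB-231 cells below that depth. ESR1 was seen in 19.3% of BT-474 cells (exact binomial interval 17.6 to 20.97), 0.295% of MDA-MB-453 cells (0.142 to 0.542) and 0.107% of MDA-MB-231 cells. Without thinning, at median depths of 28472, 20274 and 26165 UMIs, the ESR1 shares were 45.8%, 0.819% and 0.423%. PGR was seen in 59.9% of BT-474 cells (57.8 to 61.9) and 1.54% of MDA-MB-453 cells (1.15 to 2.01), the latter next to 1.28% in MDA-MB-231. NR2F1 was in 97.4% of MDA-MB-453 cells and 3.15% of BT-474 cells, below the 6.998% of MDA-MB-231. PGR and NR2F1 were thus seen in most cells of the line they were high in. ESR1 was seen in fewer BT-474 cells, but its summed level was low and its share rose with depth. Its share therefore does not show whether only a part of the BT-474 cells expressed it.

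**Figure D3:**
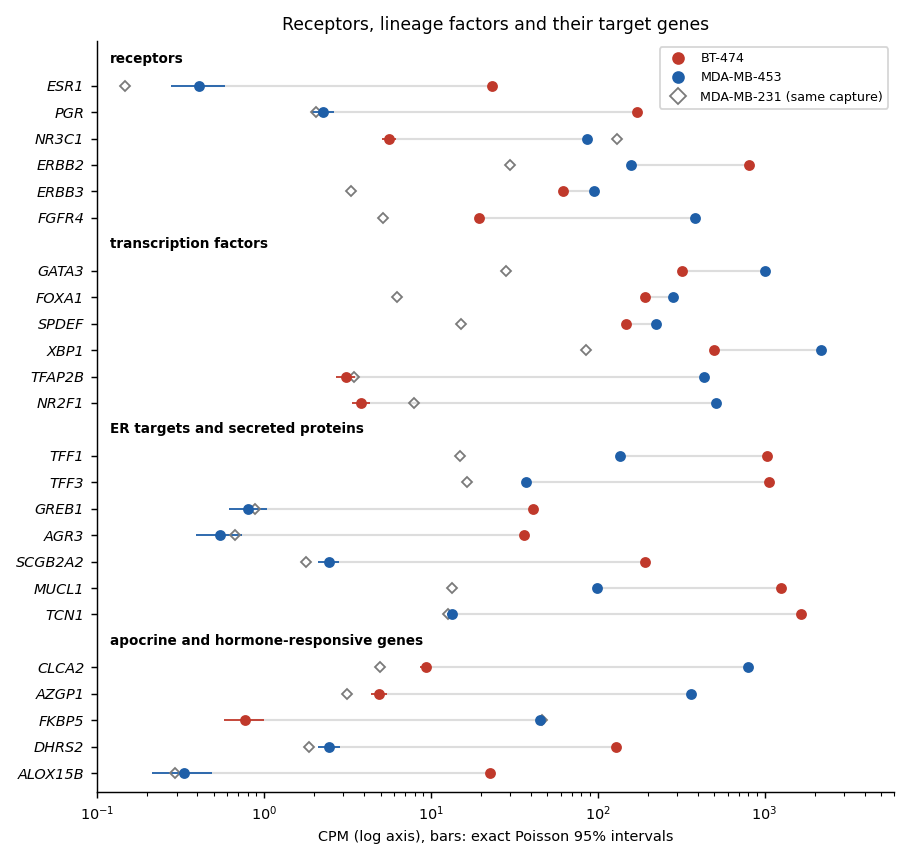
Summed level in CPM (log axis) of receptor, transcription factor, secreted protein and apocrine or hormone-responsive genes in BT-474 (red), MDA-MB-453 (blue) and MDA-MB-231 (grey diamonds), 1 culture each, with exact Poisson intervals as bars. ESR1 and PGR lie far apart between the lines at 23.3 and 171 CPM in BT-474, while the 2 values of FOXA1 and of SPDEF lie close together.

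**Figure D4:**
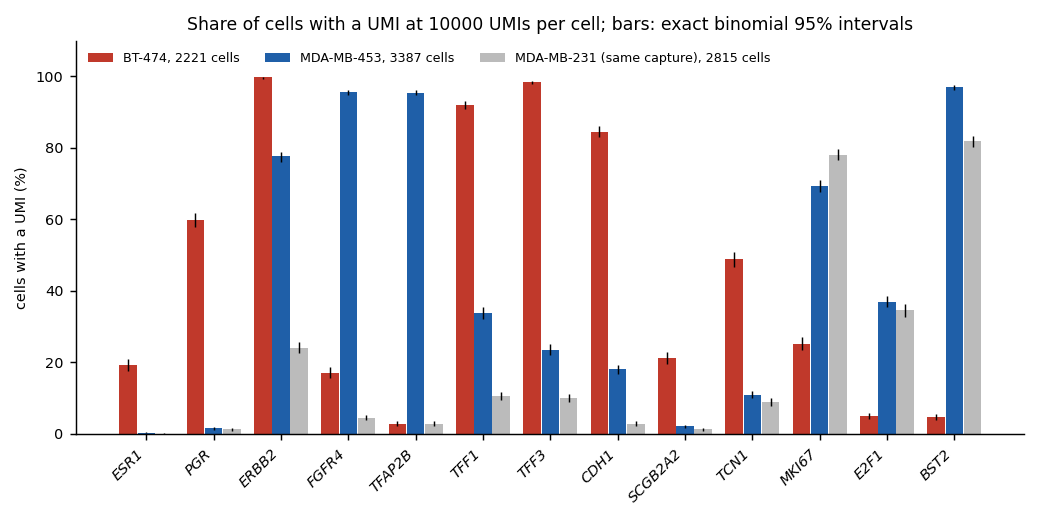
Percent of cells with at least 1 UMI of a gene after thinning to 10000 UMIs a cell, in BT-474, MDA-MB-453 and MDA-MB-231, with exact binomial intervals. PGR, TFF3 and CDH1 mark BT-474 cells, and FGFR4 and TFAP2B mark MDA-MB-453 cells. MKI67, E2F1 and BST2 are seen in fewer BT-474 cells than in cells of the other lines.

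Genes known as oestrogen receptor targets were mostly higher in BT-474. Of 27 measured, 15 (55.6%) were higher in BT-474 and 6 (22.2%) in MDA-MB-453, against 10.6% and 18.4% of all measured genes. Their median log2 ratio was 1.27. GREB1, a coactivator induced by oestrogen, was at 41.2 CPM in BT-474 and 0.808 CPM in MDA-MB-453, 51-fold higher (39.6 to 66.9). AGR3, a protein disulphide isomerase relative, was 66.5-fold higher (48.9 to 92.9), at 36.1 against 0.543 CPM. The MDA-MB-453 levels of both lay at those of MDA-MB-231 (0.881 and 0.673 CPM). TFF1, a small secreted trefoil peptide long used as a readout of the receptor, was at 1040.3 CPM in BT-474 and 136 CPM in MDA-MB-453, 7.67-fold higher (7.52 to 7.83). TFF1 was above background in MDA-MB-453, where 33.9% of thinned cells held a UMI against 10.7% of MDA-MB-231 cells, and in BT-474 it was in 92.1%. It was uneven over MDA-MB-453 cells, with a median of 0, a 90th percentile of 2 and a maximum of 296 UMIs. The summed level of TFF1 in MDA-MB-453 is thus not that of a typical cell. The ubiquitin ligase gene SIAH2 (97.3 against 17.7 CPM), the secreted hormone gene STC2 (53.7 against 4.06 CPM) and IGFBP4, which binds insulin-like growth factors (54.5 against 10.5 CPM), were also higher in BT-474.

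The exceptions among the targets were abundant genes, and the summed level of the list was 3735 CPM in BT-474 and 5047 CPM in MDA-MB-453, opposite in direction to its median. XBP1, the transcription factor of the secretory pathway, was at 498 CPM in BT-474 and 2177 CPM in MDA-MB-453, 4.37-fold higher in the latter (4.32 to 4.42). The cyclin gene CCND1 was 2.41-fold higher in MDA-MB-453 (2.38 to 2.45), at 379 against 914 CPM. CA12, a membrane carbonic anhydrase, was 3.39-fold higher in MDA-MB-453 (3.28 to 3.51), the lipid transporter gene ABCA3 6.62-fold higher (5.91 to 7.43), and the corepressor gene NRIP1 was at 46.6 against 156 CPM. MYB, another target, lay within 2-fold at 15.4 and 18.6 CPM.

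Secreted and mucin-type products of luminal cells stood mostly on the BT-474 side, with a median of 2.30. Of 22 measured genes, 13 (59.1%) were higher there and 3 (13.6%) in MDA-MB-453, against 10.6% and 18.4% of all measured genes. TFF3, a second trefoil peptide, was at 1064 CPM in BT-474 and 37.4 CPM in MDA-MB-453, 28.4-fold higher (27.4 to 29.5), and was in 98.4% of BT-474 cells. The mammaglobin gene SCGB2A2 was 78.8-fold higher (68.2 to 91.6), at 193 against 2.45 CPM, and its partner SCGB1D2 85.9-fold higher (63.4 to 119). Their spread over BT-474 cells differed: SCGB2A2, with the larger sum, was in 21.2% of cells (19.5 to 22.97) and SCGB1D2 in 29.2% (27.3 to 31.2). The small mucin gene MUCL1 was at 1256 CPM in BT-474 and 98.9 CPM in MDA-MB-453, 12.7-fold higher (12.4 to 13), and PSCA, a lipid-anchored surface protein, 41.5-fold higher (35.2 to 49.2). In a thinned BT-474 cell the median was 3 UMIs of MUCL1 and the 90th percentile 34. In MDA-MB-453 MUCL1 was in 27.2% of thinned cells, with a median of 0, a 90th percentile of 1 and a maximum of 313 UMIs. Its summed level there is thus not that of a typical cell.

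On the MDA-MB-453 side, AZGP1, a secreted lipid-mobilising factor, was at 4.92 CPM in BT-474 and 365 CPM in MDA-MB-453, 74.2-fold higher (66.6 to 82.8). AGR2, the relative of AGR3 that folds mucins, was present in both lines at 509 and 1036 CPM, 2.03-fold higher in MDA-MB-453 (2.01 to 2.06), just past 2-fold. ANXA9, an annexin, was at 8.53 against 19.9 CPM. With mitochondrial genes, 17q12 genes and MALAT1 left out of the total, 1 secreted gene in place of 3 was called higher in MDA-MB-453. AGR2 and AGR3, close relatives, thus differed in opposite directions.

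Apocrine and related hormone-responsive genes were split between the lines. Of 19 measured of 44 listed, 8 (42.1%) were higher in BT-474 and 5 (26.3%) in MDA-MB-453, with a median of 0.14. Over all measured genes the shares were 10.6% and 18.4%. CLCA2, a calcium-activated chloride channel regulator, was at 9.35 CPM in BT-474 and 796 CPM in MDA-MB-453, 85.2-fold higher (78.8 to 92.2), and was in 98.1% of MDA-MB-453 cells. FKBP5, a chaperone partner induced through the glucocorticoid receptor, was at 0.769 CPM in BT-474 and 45.1 CPM in MDA-MB-453, 58.6-fold higher (44.7 to 78.5). MDA-MB-231, with NR3C1 at 131 CPM, had FKBP5 at 46.1 CPM. Both genes were lowest in BT-474, and a link between them was not tested. The sorbitol dehydrogenase gene SORD (24.6 against 132 CPM) and the elongation factor gene ELL2 (2.57 against 29.6 CPM) were also higher in MDA-MB-453.

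The members higher in BT-474 included DHRS2, a short-chain dehydrogenase, at 129 against 2.46 CPM (52.3-fold, 45.2 to 60.8), ALOX15B, a lipoxygenase, at 68.05-fold (45.9 to 105), and the desaturase gene FADS2 at 20.7-fold (17.7 to 24.5), besides MUCL1 above and HPGD (10.4 against 0.0927 CPM). KLK2, KLK3, KLK4 and TMPRSS2, hormone-responsive genes best known from prostate, did not reach 10 CPM in either line. The largest summed levels in this list were those of MUCL1 in BT-474 and of DBI, within 2-fold between the lines, and CLCA2 in MDA-MB-453.

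The transcription factors of the luminal lineage were shared in part. Of 29 measured, 8 (27.6%) were higher in BT-474, 7 (24.1%) in MDA-MB-453 and 14 lay within 2-fold. Over all measured genes the shares called were 10.6% and 18.4%. FOXA1 was at 192 CPM in BT-474 and 284 CPM in MDA-MB-453, and SPDEF, an ETS factor of secretory cells, at 149 and 224 CPM, both within 2-fold and both far above the 6.25 and 15.2 CPM of MDA-MB-231. GATA3 was at 319 CPM in BT-474 and 1008 CPM in MDA-MB-453, 3.16-fold higher in the latter (3.11 to 3.21), so it was higher in the line with ESR1 near 0. TFAP2B (chr6:50818723-50847613, plus strand), an AP-2 factor, was at 3.09 CPM in BT-474 and 432 CPM in MDA-MB-453, 139.6-fold higher (122 to 160.5), with the BT-474 value at the background of MDA-MB-231 (3.45 CPM). Its relative TFAP2C, on 20q13, was the opposite, at 84.9 against 22.98 CPM. AP-2 factors, like AGR2 and AGR3, thus differed in both directions. BHLHE40, a basic helix-loop-helix repressor, was 29.4-fold higher in MDA-MB-453 (24.7 to 35.3). In BT-474 the coactivator gene CITED4 (43.5-fold, 33.1 to 58.5), ELF5, the ETS factor of milk-secreting cells (76.2-fold, 42.4 to 153), and KLF5 (10.1-fold, 8.75 to 11.7) were higher, at 29.97, 11.1 and 28.5 CPM.

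ERBB receptors and their ligands numbered 5 measured genes of 17. ERBB2 (chr17:39687914-39730426, plus strand) was at 808 CPM in BT-474, 157 CPM in MDA-MB-453 and 29.7 CPM in MDA-MB-231, 5.13-fold higher in BT-474 than in MDA-MB-453 (5.03 to 5.23). Both luminal lines held it above MDA-MB-231, and UMIs were seen in 99.7%, 77.6% and 24.1% of the cells. ERBB3, the kinase-impaired partner that ERBB2 needs for strong signalling to PI3K, was at 62.4 CPM in BT-474 and 95 CPM in MDA-MB-453, within 2-fold. EGFR did not reach 10 CPM in either line, at 7.11 and 1.81 CPM against 116 CPM in MDA-MB-231. The EGFR ligand gene AREG was 3.498-fold higher in BT-474 (3.28 to 3.73), at 55.9 against 15.99 CPM. The feedback inhibitors of the family, LRIG1 (3.26-fold, 2.999 to 3.56) and ERRFI1 (2.29-fold, 2.14 to 2.46), were higher in MDA-MB-453.

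Genes around ERBB2 at 17q12 stood together on the BT-474 side. Of 30 measured, 27 were higher in BT-474 and 0 in MDA-MB-453, with a median log2 ratio of 2.46, and the list took 2.27% of the BT-474 UMIs against 0.301% in MDA-MB-453. The ratio of ERBB2 itself was not the largest of its neighbourhood: PNMT, which makes adrenaline, was 32.6-fold higher (25.3 to 42.7), the lymphoid transcription factor gene IKZF3 55.6-fold higher (47.6 to 65.3) and THRA 17.1-fold higher. GRB7, an adaptor that binds ERBB2, was at 133 against 37.6 CPM (3.55-fold, 3.404 to 3.705), and STARD3, a cholesterol transporter, at 223 against 45.9 CPM (4.85-fold, 4.67 to 5.03). In MDA-MB-453 the levels of ERBB2 and GRB7 were above those of MDA-MB-231 (29.7 and 3.93 CPM), while IKZF3 was at 2.17 and 1.52 CPM in these lines. CDK12, the transcriptional kinase gene of the region, was 4.33-fold higher (4.21 to 4.45).

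The gene of highest level in the region, not on the list, was RPL19, which codes for a protein of the large ribosomal subunit, at 27046 CPM in BT-474 and 1998 CPM in MDA-MB-453, 13.5-fold higher (13.5 to 13.6). RPL23, another such gene nearby, was at 13452 against 1192 CPM (11.3-fold, 11.2 to 11.4), and the proteasome subunit gene PSMB3 at 1967 against 294 CPM (6.69-fold, 6.59 to 6.78). Ribosomal protein genes have many near-identical processed copies in the genome, and how reads shared with such copies were counted is not given in the sources used here. All 82 ribosomal protein genes together took 18.9% of the BT-474 UMIs and 15.6% of the MDA-MB-453 UMIs. Within the list CDC6, TOP2A and MSL1, toward its distal end, lay within 2-fold, at log2 ratios of -0.25, 0.13 and 0.18.

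At 17q23, 14 of 22 measured genes were higher in BT-474 and 3 in MDA-MB-453, with a median of 1.40, and the direction turned along the chromosome. YPEL2 was 10.8-fold higher in BT-474 (9.56 to 12.2), the cell cycle gene PRR11 8.63-fold higher (8.21 to 9.09) and the ubiquitin ligase gene TRIM37 5.72-fold higher (5.47 to 5.99). BCAS3 (chr17:60677453-61392838) still had a log2 ratio of 1.76. BRIP1, the helicase gene that follows it at chr17:61681266-61863521, had -1.37, and INTS2, MED13 and METTL2A beyond it had -1.06, -0.44 and -1.55. All genes of the list that were higher in MDA-MB-453, METTL2A (3.02-fold, 2.85 to 3.204), BRIP1 (2.73-fold, 2.51 to 2.98) and INTS2 (2.17-fold, 2.0 to 2.36), thus lay on the far side of BCAS3. PPM1D, a phosphatase gene of the DNA damage response and a known target of this gain, was at 31.2 against 15.2 CPM, just short of the call.

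At 20q13, 19 of 36 measured genes were higher in BT-474 and 0 in MDA-MB-453, with a median of 1.03. BCAS1 was at 324 CPM in BT-474 and 7.28 CPM in MDA-MB-453, 44.5-fold higher (40.9 to 48.6). BMP7, a secreted ligand of the TGF-beta family, was 63.03-fold higher (51.98 to 77.2), and PREX1, an activator of RAC signalling, 28.6-fold higher (25.8 to 31.7). The coactivator gene NCOA3 was at 324 against 62.6 CPM and the transcription factor gene ZNF217 at 161 against 54.9 CPM. Beside these, most members lay near 2-fold or below it, down to ADNP at a log2 ratio of -0.15.

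To look beyond these lists, measured genes were put in genomic order and the median log2 ratio was taken in 8309 sliding windows of 20 genes, of which the most extreme that do not overlap are given. The highest median, 2.90, was at chr17:38733897-39864188, from PCGF2 to IKZF3, with 20 of 20 genes higher in BT-474. Next came the adjoining chr17:36486629-38735044, ZNHIT3 to CISD3, at 1.86, then chr20:50958826-58679526, MOCS3 to STX16, at 1.84, with 17 of 20 higher in BT-474, and chr17:58083415-60078931, DYNLL2 to HEATR6, at 1.76, also 17 of 20. The window E2F1 to CEP250 on 20q11, at 1.51, held a switch of direction: AHCY had a log2 ratio of -1.87 and its neighbour ITCH 2.07. On the short arm of X, chrX:2219516-13734635, DHRSX to TRAPPC2, stood at 1.34.

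The lowest median, -2.47, was at chrX:154401238-155669944, from DNASE1L1 to TMLHE at the end of the long arm, with 20 of 20 genes higher in MDA-MB-453. This window holds LAGE3, a tRNA modification factor, at 82.6 against 1069 CPM (12.9-fold, 12.6 to 13.3). On chr17:74424851-75405709, GPRC5C to GRB2, the median was -2.21 and again 20 of 20 genes were higher in MDA-MB-453, among them SUMO2, at 536 against 2929 CPM (5.46-fold, 5.404 to 5.52), and ATP5PD, a subunit of ATP synthase. Windows at chr20:36751791-43647296 (-1.82), chr10:119140767-124791870 (-1.76) and in 2 places on the long arm of chromosome 1 (both -1.63) followed.

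Over whole chromosomes, chromosome 22 stood lowest at a median of -0.92, with 100 of 219 measured genes higher in MDA-MB-453 and 6 in BT-474, spread over its length. Chromosome 15 had a median of -0.76, with 101 of 274 genes higher in MDA-MB-453, and chromosome 7 was the highest at 0.38, with 85 of 403 higher in BT-474 and 22 in MDA-MB-453. Chromosome 17 held runs in both directions, with 111 genes higher in BT-474 and 82 in MDA-MB-453 of 516. These are RNA levels, and copy number was not measured here.

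**Figure D5:**
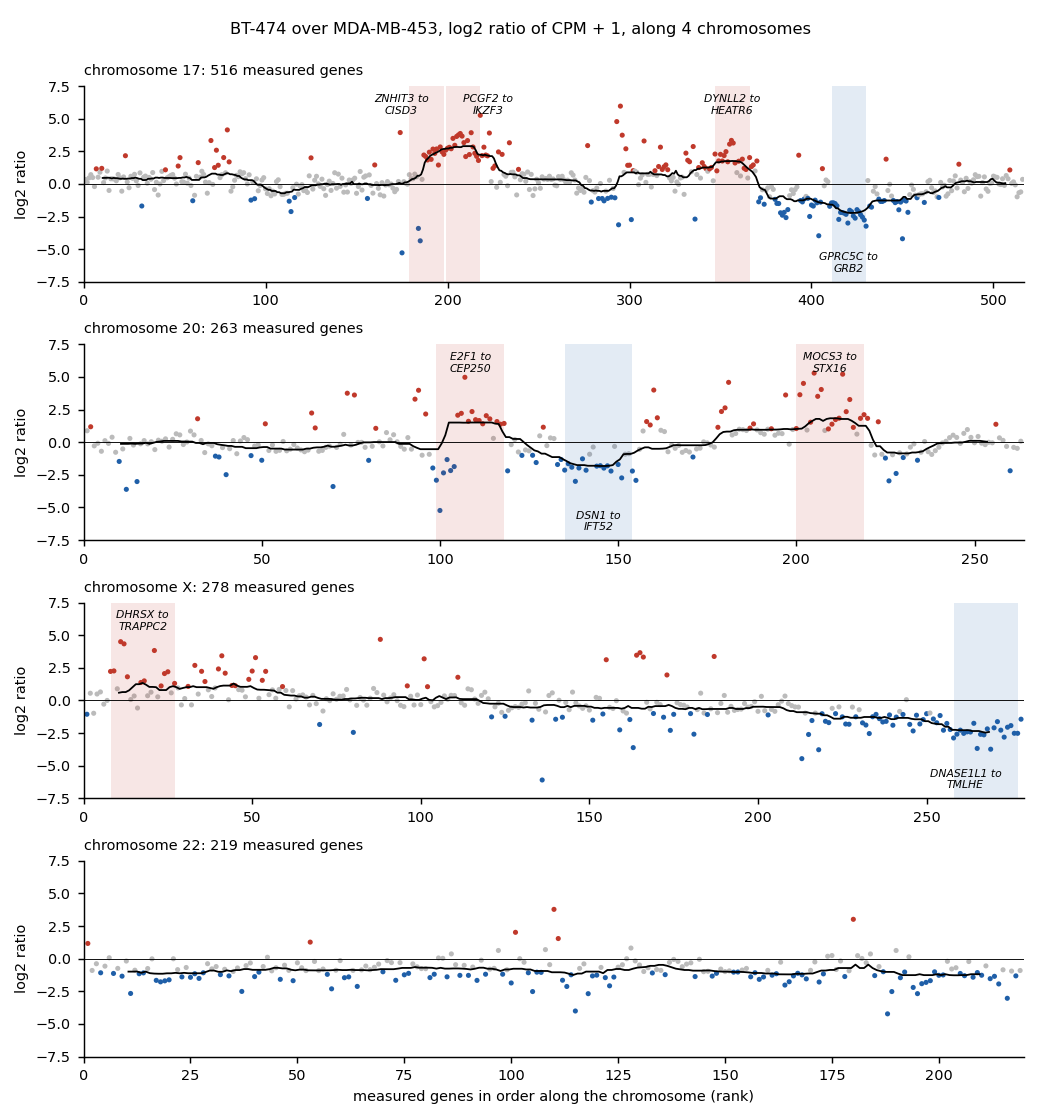
Log2 ratio of BT-474 over MDA-MB-453 (y axis) of the measured genes in their order along chromosomes 17, 20, X and 22 (x axis, rank of the gene), with red and blue points for genes called higher in BT-474 and in MDA-MB-453, a black line for the median of 20 genes and shading for the extreme windows. Runs of one direction are seen on chromosomes 17 and 20, a slope toward the end of X, and a low level over the whole of chromosome 22 (median -0.92).

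Of other receptor kinases, 11 were measured, 2 (18.2%) higher in BT-474 and 3 (27.3%) in MDA-MB-453. Over all measured genes the shares were 10.6% and 18.4%. FGFR4 (chr5:177086886-177098144, plus strand), a fibroblast growth factor receptor, was at 19.5 CPM in BT-474 and 385 CPM in MDA-MB-453, 19.8-fold higher (18.7 to 20.9), and was in 95.7% of MDA-MB-453 cells against 17.1% in BT-474 and 4.51% in MDA-MB-231. MST1R, the receptor of macrophage-stimulating protein, was 25.6-fold higher in MDA-MB-453 (20.1 to 33.02) and the ephrin receptor gene EPHA4 4.72-fold higher (4.32 to 5.16). In BT-474 the hepatocyte growth factor receptor gene MET (13.9-fold, 10.7 to 18.4) and IGF1R (2.65-fold, 2.45 to 2.87) were higher, at 11.2 and 29.8 CPM.

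Regulators of the PI3K and ERK pathways were more often higher in MDA-MB-453, 13 of 35 measured (37.1%) against 5 (14.3%) higher in BT-474. Their median was -0.55, and the shares over all measured genes were 18.4% and 10.6%. The genes higher in MDA-MB-453 included the negative feedback genes that ERK signalling induces. DUSP6, the ERK phosphatase, was at 23.5 CPM in BT-474 and 171 CPM in MDA-MB-453, 7.25-fold higher (6.89 to 7.64), and SPRY1, a Sprouty inhibitor, at 10.1 against 82.4 CPM (8.15-fold, 7.53 to 8.82). SPRY4 and SPRED1 stood the same way (1.61 against 12.5 and 4.44 against 36.8 CPM), and so did PHLDA2 (8.48-fold, 8.102 to 8.89) and HRAS (66.6 against 321 CPM). DUSP4, a relative of DUSP6, was the exception at 175 against 48.6 CPM. INPP4B, a lipid phosphatase that lowers PI3K signalling, was at 82.7 CPM in BT-474 and 2.33 CPM in MDA-MB-453, 35.5-fold higher (30.5 to 41.5), GRB10 6.89-fold higher (6.03 to 7.899) and SGK3, a kinase downstream of PI3K, 5.65-fold higher (5.09 to 6.29).

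Of 27 measured tumour suppressor genes, 3 were higher in BT-474 and 4 in MDA-MB-453, near the shares over all genes. CDH1, described with the junction genes, was among the former. CDKN1A, the cell cycle inhibitor p21, was 3.595-fold higher in BT-474 (3.29 to 3.93). FBXW7, the substrate receptor that sends cyclin E and MYC for degradation, was at 15.9 CPM in BT-474 and 139 CPM in MDA-MB-453, 8.73-fold higher in the latter (8.21 to 9.303). BRCA2 was 4.18-fold higher in MDA-MB-453 (3.903 to 4.48) and CHEK2 2.97-fold higher (2.696 to 3.28), and RB1 was at 32.97 against 81.1 CPM.

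Junction genes numbered 37 measured, with 4 higher in BT-474 and 7 in MDA-MB-453, again near the shares over all genes. Under 4 other settings, among them scaling by trimmed means, 7 in place of 4 were higher in BT-474. CDH1 (E-cadherin) was at 204 CPM in BT-474 and 20.5 CPM in MDA-MB-453, 9.96-fold higher (9.45 to 10.5), and was in 84.6% against 18.04% of cells. Its level in MDA-MB-453 was above the 3.01 CPM of MDA-MB-231. The desmosomal plaque genes DSP (377 against 37.1 CPM, 10.1-fold, 9.76 to 10.6) and PKP2 (16.2-fold, 13.2 to 20.01) stood the same way. CLDN3, a tight junction claudin, was 2.82-fold higher in MDA-MB-453 (2.72 to 2.93), SPINT1, an inhibitor of surface proteases, 2.64-fold higher (2.54 to 2.73), and EVPL, of the cornified envelope, 2.57-fold higher (2.34 to 2.83). The catenin gene CTNNB1 (35.5 and 48.96 CPM) and the tight junction gene OCLN (17.6 and 21 CPM) lay within 2-fold.

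Keratins, the intermediate filaments of epithelia, were higher in BT-474 or within 2-fold, 4 and 3 of 7 measured, and none was called higher in MDA-MB-453. KRT8 was at 1306 CPM in BT-474 and 412 CPM in MDA-MB-453, 3.17-fold higher (3.13 to 3.21), and KRT7 at 1136 against 358 CPM (3.18-fold, 3.13 to 3.22). KRT18, the partner of KRT8, was 1.81-fold higher (1.796 to 1.83) and KRT19 1.85-fold higher (1.84 to 1.87), both short of 2-fold. KRT15 (11.04-fold, 9.77 to 12.5) and KRT80 (5.25-fold, 4.65 to 5.95) were higher at a lower level, and the basal keratins KRT5 and KRT14 did not reach 10 CPM. Near-identical keratin genes could share reads.

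Genes of mesenchymal character were mostly not measured, with 14 of 47 reaching 10 CPM. Among those measured, 8 (57.1%) were higher in BT-474 and 3 (21.4%) in MDA-MB-453, against 10.6% and 18.4% of all measured genes. TWIST1, a transcription factor of epithelial-mesenchymal transition, was at 48.5 CPM in BT-474, 0.556 CPM in MDA-MB-453 and 0.685 CPM in the mesenchymal line MDA-MB-231, 87.3-fold higher in BT-474 than in MDA-MB-453 (64.4 to 121). COL12A1, a collagen, was 40.4-fold higher (33.6 to 48.98) and the secreted glycoprotein gene FSTL1 10.4-fold higher (8.64 to 12.6). LGALS1 (galectin-1) was at 30.7 CPM in BT-474 and 509.8 CPM in MDA-MB-453, 16.6-fold higher in the latter (15.9 to 17.4), with 2317 CPM in MDA-MB-231. The matrix genes THBS1 (12.4-fold, 11.7 to 13.2) and TNC (5.82-fold, 5.29 to 6.41) were also higher in MDA-MB-453. Vimentin (VIM), called higher in BT-474, was at 53.1 and 24.3 CPM beside 2003 CPM in MDA-MB-231, and ANXA1 at 91.4 and 13.2 CPM beside 913 CPM. These levels were small next to those of the line that shared the capture. VIM and ANXA1 are among the MDA-MB-231 markers from which free RNA was estimated. What part of their levels in BT-474 and MDA-MB-453 was free RNA was not tested. CDH2, ZEB1, SNAI2 and FN1 did not reach 10 CPM in either line.

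Genes of DNA replication, active in G1/S, were more often higher in MDA-MB-453 than genes in general. Genes of mitosis, active in G2/M, were so as well, but not in the cells with few mitochondrial UMIs. The promoters of both groups carry short elements, the E2F site bound by E2F factors in G1/S genes and the CHR element, read by the DREAM and MuvB complexes, in G2/M genes. Among RefSeq promoters (GRCh38.p14, the 250 bases before the start of each gene), TTTCCCGC or TTTGGCGC on either strand was found in 17 of 42 matched G1/S genes (40.5%), in 2 of 50 matched G2/M genes (4%) and in 645 of all 27305 genes (2.36%). TTTGAA on either strand was found in 27 of the 50 G2/M genes (54.0%), in 4 of the 42 G1/S genes (9.52%) and in 4383 of all genes (16.1%). Among 7065 measured genes with a promoter, the shares were 4.50% for the E2F letters and 11.8% for the CHR letters. None of these motifs contains another, and a match says only that the letters are there. The promoters of E2F1, which codes for the factor itself, of DTL, a substrate receptor that limits replication to once a cycle, and of the proliferation marker MKI67 are shown because these genes were among those with the largest differences. They lie at chr20:33686386-33686635 (minus strand), chr1:212035498-212035747 (plus strand) and chr10:128126424-128126673 (minus strand), are written 5′ to 3′ along the gene, and have the matches in capitals.
E2F1: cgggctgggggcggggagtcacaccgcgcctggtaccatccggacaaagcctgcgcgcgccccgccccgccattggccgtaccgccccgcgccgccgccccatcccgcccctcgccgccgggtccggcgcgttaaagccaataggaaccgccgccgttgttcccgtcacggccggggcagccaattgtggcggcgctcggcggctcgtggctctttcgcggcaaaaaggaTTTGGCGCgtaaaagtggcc
DTL: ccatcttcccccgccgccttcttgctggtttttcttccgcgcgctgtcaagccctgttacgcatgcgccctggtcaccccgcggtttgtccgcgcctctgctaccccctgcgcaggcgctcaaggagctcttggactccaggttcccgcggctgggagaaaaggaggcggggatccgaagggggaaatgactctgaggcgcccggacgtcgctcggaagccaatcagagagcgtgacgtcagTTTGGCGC
MKI67: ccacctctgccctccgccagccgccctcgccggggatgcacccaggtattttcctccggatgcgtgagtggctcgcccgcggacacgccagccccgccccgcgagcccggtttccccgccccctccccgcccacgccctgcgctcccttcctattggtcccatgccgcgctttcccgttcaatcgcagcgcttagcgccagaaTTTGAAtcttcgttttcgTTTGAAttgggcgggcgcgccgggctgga

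Of 52 measured G1/S genes, 32 (61.5%, against 18.4% of all genes) were higher in MDA-MB-453 and 1 in BT-474, with a median log2 ratio of -1.11. E2F1 was at 6.98 CPM in BT-474, 59.1 CPM in MDA-MB-453 and 47.6 CPM in MDA-MB-231, 8.46-fold higher in MDA-MB-453 than in BT-474 (7.701 to 9.32), and it lies in the run of genes on 20q11 that were lower in BT-474. DTL was at 16.7 against 113 CPM (6.77-fold, 6.37 to 7.21) and RRM2, the ribonucleotide reductase subunit that supplies deoxynucleotides, at 45.3 against 231 CPM (5.099-fold, 4.91 to 5.299). Helicase subunits of the replication fork stood the same way, with MCM4 at 54.6 against 163 CPM and MCM5 at 22.8 against 85.5 CPM, while MCM7 lay within 2-fold at 95.5 and 124 CPM. The gene higher in BT-474 was POLA1, the catalytic subunit of DNA polymerase alpha (2.14-fold, 2.01 to 2.28). TYMS, thymidylate synthase, lay within 2-fold at 88.4 and 69.5 CPM.

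Of 58 G2/M genes, all measured, 24 (41.4%) were higher in MDA-MB-453 and 1 in BT-474, with a median of -0.82. MKI67 was at 61.1 CPM in BT-474, 322 CPM in MDA-MB-453 and 414 CPM in MDA-MB-231, 5.26-fold higher in MDA-MB-453 than in BT-474 (5.095 to 5.44). Thinned UMIs of it were in 25.3% of BT-474 cells (23.5 to 27.2), 69.4% of MDA-MB-453 cells (67.8 to 70.9) and 78.1% of MDA-MB-231 cells, so BT-474 had the smallest share of cells with a UMI of it. NUSAP1, a spindle protein, was 8.92-fold higher in MDA-MB-453 (8.59 to 9.27) and the histone chaperone gene ANP32E 5.24-fold higher (4.998 to 5.498). AURKA, the mitotic kinase gene at 20q13, was 2.03-fold higher in BT-474 (1.98 to 2.08), just past 2-fold, and TOP2A, near ERBB2, was at 215 and 196 CPM. Cyclin B1 (CCNB1, 106 and 191 CPM) and CDC20 (55.4 and 62.99 CPM) lay within 2-fold. With at most 10% mitochondrial UMIs and at least 5000 UMIs a cell, which left 206 BT-474 and 1778 MDA-MB-453 cells, 8 of 58 G2/M genes (13.8%) in place of 24 were higher in MDA-MB-453, below the 17.8% over all genes under those limits, and MKI67 had a log2 ratio of -1.84 in place of -2.38. The mitochondrial limit left out 2023 BT-474 and 1639 MDA-MB-453 cells, and the UMI minimum alone left out 2 and 1. The excess of G2/M genes thus did not hold in the few BT-474 cells left, and what part the mitochondrial share had in it was not tested. Under the same limits 26 G1/S genes (50%) in place of 32 were higher in MDA-MB-453.

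Cyclins, their kinases and inhibitors followed in part, with 9 of 27 measured (33.3%) higher in MDA-MB-453 and 3 (11.1%) in BT-474. Over all measured genes the shares were 18.4% and 10.6%, so the BT-474 share was near that of all genes. E2F1 is counted both here and among the G1/S genes. RBL1 (p107), a pocket protein related to RB1, was 11.03-fold higher in MDA-MB-453 (9.38 to 13.05), and CCND3 3.74-fold higher (3.45 to 4.06), beside CCND1 above. The kinase gene CDK6 was 4.42-fold higher in BT-474 (3.93 to 4.97), at 20.98 against 4.75 CPM, and CDK4 was level at 107 and 105 CPM. CDKN2A (p16 and p14ARF) lay within 2-fold at 11.6 and 23.2 CPM.

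Interferon-stimulated genes were mostly unmeasured, 16 of 45 reaching 10 CPM. Of these, 4 (25%) were higher in BT-474 and 6 (37.5%) in MDA-MB-453, against 10.6% and 18.4% of all measured genes. BST2 (tetherin), a surface protein that holds back budding virus, was at 4.93 CPM in BT-474, 374 CPM in MDA-MB-453 and 219 CPM in MDA-MB-231, 75.7-fold higher in MDA-MB-453 than in BT-474 (68.03 to 84.5), and was in 96.9% of MDA-MB-453 cells. The ubiquitin-like modifier ISG15 (11.9-fold, 11.02 to 12.9) and the transcription factor gene IRF7 (11.9-fold, 10.3 to 13.8) were higher in MDA-MB-453 too. MX2, an antiviral GTPase (34.2-fold, 23.95 to 50.7), IFITM3 (5.43-fold, 4.77 to 6.21) and SP100, of nuclear bodies (3.0-fold, 2.71 to 3.33), were higher in BT-474, each at or below 20.1 CPM. IFI6, IFI27, IFIT1 and MX1 did not reach 10 CPM.

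Of 12 measured MHC class I and peptide loading genes, 4 (33.3%) were higher in MDA-MB-453 and 1 (8.33%) in BT-474. Over all measured genes the shares were 18.4% and 10.6%. The median of these 12 genes was 0.26, so count and median differ in sign. B2M, the light chain, was at 239 CPM in BT-474 and 701 CPM in MDA-MB-453, 2.93-fold higher in the latter (2.88 to 2.98). The chaperones CALR (2.55-fold, 2.51 to 2.597) and PDIA3 (2.35-fold, 2.29 to 2.399) followed it. The heavy chain gene HLA-B was low in both lines next to MDA-MB-231, at 19.3, 7.202 and 356 CPM in BT-474, MDA-MB-453 and MDA-MB-231. It was 2.69-fold higher in BT-474 than in MDA-MB-453 (2.43 to 2.97), and HLA genes can share reads or lose them to allelic differences from the reference. NF-kB and cytokine genes were measured in 10 of 46 cases. The interleukin-1 receptor gene IL1R1 was at 11 CPM in BT-474 and 237 CPM in MDA-MB-453, 21.5-fold higher (19.99 to 23.2), and the mucosal chemokine gene CCL28 37.5-fold higher (28.7 to 49.8). CXCL16 was also higher there (3.88-fold, 3.36 to 4.49). REL (4.72-fold, 4.03 to 5.56) and IL6ST, the shared receptor of interleukin-6 cytokines (3.49-fold, 3.08 to 3.97), were higher in BT-474.

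Immediate early and heat shock genes were close to the shares over all genes, with 3 of 34 higher in BT-474 and 6 in MDA-MB-453. FOS was at 200.1 CPM in BT-474 and 925 CPM in MDA-MB-453, 4.62-fold higher in the latter (4.54 to 4.71), followed by the flow- and stress-induced factor KLF2 (3.63-fold, 3.498 to 3.76) and the co-chaperone BAG3 (4.14-fold, 3.804 to 4.51). JUN and EGR1, induced by the same stimuli as FOS, lay within 2-fold at 239.9 and 219 CPM and at 96.2 and 91.7 CPM. HSPB8, a small heat shock protein (49.2-fold, 33.1 to 76.3), the antiproliferative gene BTG2 (3.73-fold, 3.54 to 3.94) and FOSL2 (3.37-fold, 3.06 to 3.71) were higher in BT-474. The abundant chaperones HSP90AA1 (3628 and 4287 CPM) and HSPA8 (974 and 1123 CPM) did not reach 2-fold.

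In the unfolded protein and amino acid responses, 8 of 34 measured genes (23.5%) were higher in MDA-MB-453 and 3 (8.82%) in BT-474. These counts lay near the shares over all measured genes, 18.4% and 10.6%. Those higher in MDA-MB-453 were mainly of the endoplasmic reticulum. SDF2L1 was at 48.7 CPM in BT-474 and 282 CPM in MDA-MB-453, 5.796-fold higher (5.59 to 6.01), beside XBP1 above and MANF (27.2 against 107 CPM), whereas HSPA5 (BiP) was level at 252 and 256 CPM. SLC7A11, the cystine importer, was 15.1-fold higher in MDA-MB-453 (12.3 to 18.8). Those higher in BT-474 were PSAT1, of serine synthesis, at 48.3 against 1.67 CPM (28.9-fold, 24.2 to 34.9), the stress factor DDIT3 (4.23-fold, 3.97 to 4.51) and the amino acid transporter SLC7A5 (2.09-fold, 1.93 to 2.26). ATF4, the factor that drives the amino acid response, was at 113 and 141 CPM.

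Genes of cholesterol and fatty acid synthesis mostly lay within 2-fold, with a median of 0.00. Of 38 measured, 6 (15.8%) were higher in BT-474 and 1 (2.63%) in MDA-MB-453, against 10.6% and 18.4% of all measured genes. Fatty acid synthase (FASN) was at 124 and 124 CPM. ACACA, which makes malonyl-CoA and lies on chromosome 17 in the run below ERBB2, was at 116 against 24.2 CPM, FADS1 at 61.5 against 7.59 CPM, the lipid droplet gene PLIN2 17.7-fold higher (13.7 to 23.2) and malic enzyme ME1 21.8-fold higher (15.7 to 31.3) in BT-474. INSIG2, which retains the sterol-regulated factor SREBP in the endoplasmic reticulum, was 3.38-fold higher in MDA-MB-453 (3.196 to 3.57).

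Hypoxia and glycolysis genes leaned to MDA-MB-453, with 13 of 31 measured (41.9%) higher there and 2 (6.45%) in BT-474. Over all measured genes the shares were 18.4% and 10.6%. EGLN3, a prolyl hydroxylase that marks HIF for decay and is induced by it, was at 29.8 CPM in BT-474 and 566 CPM in MDA-MB-453, 19.02-fold higher (18.2 to 19.9), with 12.7 CPM in MDA-MB-231. EGLN1 (4.63-fold, 4.26 to 5.03) and enolase 2 (ENO2, 4.296-fold, 3.79 to 4.88) followed. The lactate dehydrogenase subunits were used differently: LDHB was at 68.5 CPM in BT-474 and 7.78 CPM in MDA-MB-453, 8.796-fold higher (8.07 to 9.599), and LDHA at 256 and 606 CPM, the other way. PKM, pyruvate kinase, was 2.503-fold higher in BT-474 (2.46 to 2.55), and GAPDH was level at 2026 and 1918 CPM.

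Metallothioneins and NRF2 targets, which guard against metals and oxidants, also leaned to MDA-MB-453, 8 of 20 (40%) against 3 (15%) in BT-474. Over all measured genes the shares were 18.4% and 10.6%. The quinone reductase gene NQO1 was at 159.6 CPM in BT-474 and 703 CPM in MDA-MB-453, 4.405-fold higher (4.32 to 4.496), and the pentose phosphate enzymes TALDO1 (128 against 389.9 CPM) and TKT (173 against 448 CPM) stood the same way. GSTM3, a glutathione transferase (17.7-fold, 15.6 to 20.2), the ferritin light chain FTL (2.47-fold, 2.44 to 2.49) and MT1X (2.27-fold, 2.12 to 2.43) were higher in BT-474. Metallothionein, ferritin and glutathione transferase genes have near-identical copies, and their single values are uncertain.

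Nuclear subunits of oxidative phosphorylation mostly lay within 2-fold, with 4 of 71 (5.63%) higher in BT-474 and 8 (11.3%) in MDA-MB-453, and 3 in MDA-MB-453 without mitochondrial genes, 17q12 genes and MALAT1 in the total. Subunits of ATP synthase stood in both directions: ATP5MC1 was at 1266 against 194 CPM (6.51-fold higher in BT-474, 6.396 to 6.62) and ATP5PD at 172 against 867 CPM (5.04-fold higher in MDA-MB-453, 4.94 to 5.14), both on chromosome 17. Of complex I, NDUFA8 (2.51-fold, 2.44 to 2.58) and NDUFA4 (2.35-fold, 2.33 to 2.38) were higher in BT-474 and NDUFB6 (5.56-fold, 5.35 to 5.78) in MDA-MB-453, and of complex III UQCR10 (2.36-fold, 2.33 to 2.39) in MDA-MB-453. Of the 13 transcripts of the mitochondrial genome, 1 was called, MT-CYB, 2.15-fold higher in BT-474 (2.14 to 2.16). Their ratios were unequal, from -0.83 for MT-ND5 to 1.10 for MT-CYB on the log2 scale.

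HOX and other developmental genes were called in both directions, 9 of 24 (37.5%) higher in BT-474 and 6 (25%) in MDA-MB-453. Over all measured genes the shares were 10.6% and 18.4%. HOXB7, a homeobox gene of body axis patterning, was at 229.5 CPM in BT-474 and 2.69 CPM in MDA-MB-453, 85.4-fold higher (74.4 to 98.6), and was in 86.5% of BT-474 cells. HOXB13, at the end of the same cluster, was 40.1-fold higher (28.6 to 57.8), while HOXB2, at its other end, was 29.2-fold higher in MDA-MB-453 (19.8 to 45.01), at 11.03 CPM. HOXC8 (3.34-fold, 3.15 to 3.53) and SOX13 (3.78-fold, 3.497 to 4.09) were higher in MDA-MB-453 and ID4, an inhibitor of differentiation, 70.4-fold higher in BT-474 (52.7 to 96.4).

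Of 22 measured long noncoding RNAs, 6 (27.3%) were higher in BT-474 and 3 (13.6%) in MDA-MB-453, against 10.6% and 18.4% of all measured genes. MALAT1, the most abundant, was at 28818 CPM in BT-474 and 14953 CPM in MDA-MB-453, 1.93-fold higher (1.92 to 1.93) and short of 2-fold. The imprinted KCNQ1OT1 (49.9-fold, 40.6 to 61.99), UCA1 (22.2-fold, 16.6 to 30.3) and HOTAIR (3.49-fold, 3.11 to 3.94) were higher in BT-474. CYTOR (8.86-fold, 8.14 to 9.64), SNHG16 (2.49-fold, 2.42 to 2.56) and DANCR (2.06-fold, 2.0 to 2.11) were higher in MDA-MB-453. Few cancer-testis antigens were measured (5 of 37). They were the MAGE relatives MAGED2 (3.47-fold, 3.34 to 3.61) and MAGED1 (2.101-fold, 2.01 to 2.19), higher in BT-474, and the mitotic genes KIF2C (2.45-fold, 2.31 to 2.59), higher in MDA-MB-453, TTK and PBK.

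Apoptosis regulators were mostly within 2-fold, with 3 of 19 measured (15.8%) higher in BT-474 and 1 (5.26%) in MDA-MB-453. Over all measured genes the shares were 10.6% and 18.4%. BCL2, the founding survival gene and an oestrogen receptor target, was at 26.9 CPM in BT-474 and 2.28 CPM in MDA-MB-453, 11.8-fold higher (10.1 to 13.9). The death-promoting BH3 genes BBC3 (11.7-fold, 10.2 to 13.5) and PMAIP1 (9.67-fold, 8.61 to 10.9) were higher in BT-474 as well. BAX (56.5 and 87.02 CPM) and BCL2L1 (63.8 and 62.4 CPM) lay within 2-fold.

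Among surface proteins that antibody-drug conjugates address, 30 were measured, 9 (30%) higher in BT-474 and 8 (26.7%) in MDA-MB-453. Over all measured genes the shares were 10.6% and 18.4%. Besides ERBB2 and PSCA, the adhesion gene CEACAM6 (31.3-fold, 26.4 to 37.4) and the melanosomal glycoprotein gene GPNMB (87.4-fold, 56.4 to 144) were higher in BT-474. NECTIN4 lay within 2-fold at 21.1 and 24.1 CPM. Both ERBB3 and CD9 (478 and 624 CPM) were also within 2-fold.

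Across all genes at 50 CPM or more, the largest ratio toward BT-474 was that of TCN1, which codes for the vitamin B12-binding protein haptocorrin, at 1658 CPM in BT-474 and 13.4 CPM in MDA-MB-453, 124-fold higher (117 to 132). It was uneven over cells: 48.9% of BT-474 cells held a UMI at 10000 UMIs, the median was 0 and the 90th percentile 52 UMIs. In MDA-MB-453 it was in 10.98% of cells, near the 8.99% of MDA-MB-231, which is read as free RNA. Next to HOXB7, SCGB2A2, PGR, BCAS1, IKZF3, DHRS2 and BMP7, already described, the list of 15 held BASP1 (590.0 against 11.1 CPM), the heparin-binding growth factor gene MDK (825 against 18.9 CPM) and the aldehyde dehydrogenase gene ALDH2 (136 against 2.53 CPM). It also held genes best known from neurons, KIF1A, an axonal transport motor (58.2-fold, 49.4 to 69.1), TUBB3, a neuronal tubulin (48.05-fold, 41.8 to 55.5), and NRCAM, a neural adhesion molecule (62.6-fold, 50.5 to 78.5), and the secreted FAM3B (91.1-fold, 67.7 to 126). MDK was in 97.5% and BASP1 in 93.7% of BT-474 cells, so these were traits of nearly all cells, unlike TCN1.

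Toward MDA-MB-453, next to NR2F1, TFAP2B, CLCA2, BST2 and AZGP1, the 15 held PEG10, a retrotransposon-derived imprinted gene, at 65.4 CPM in BT-474 and 3724 CPM in MDA-MB-453 (56.9-fold, 55.3 to 58.6), and TMCO1, a calcium channel of the endoplasmic reticulum, at 3.37, 275 and 169.7 CPM in BT-474, MDA-MB-453 and MDA-MB-231 (81.6-fold, 71.7 to 93.3). PXMP4, a peroxisomal membrane protein on 20q11 beside E2F1, was at 1.07, 76.9 and 14.05 CPM. For TMCO1 and PXMP4 it was thus BT-474 that stood apart from both other lines. TDO2, which breaks down tryptophan, was 144-fold higher (104 to 206) yet was in 10.7% of MDA-MB-453 cells. The creatine kinase gene CKB (42.05-fold, 39.1 to 45.3), the potassium channel gene KCNMA1 (43.5-fold, 39.5 to 48.1), the reductase gene AKR7A3 (95.3-fold, 72.9 to 127), NUPR2 (58.4-fold, 50.9 to 67.4) and SLFN13 (120.1-fold, 84.9 to 176) completed the list with NR2F1-AS1. That RNA runs antisense beside NR2F1, and it was at 59.8 CPM in MDA-MB-453 against 0.6095 CPM in BT-474, where NR2F1 was low too.

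By level, the most abundant genes at least 4-fold higher in BT-474 were RPL19, RPL23 and TMSB4X, which binds actin monomers (3295 against 719 CPM), then PSMB3, TCN1, CRIP1 (1407 against 142 CPM), the calcium-binding gene S100A6 (1395 against 219 CPM), ATP5MC1, MUCL1 and TFF3. In MDA-MB-453 they included PEG10, SUMO2, XBP1, JPT1 (426 against 1853 CPM), LAGE3, FOS, ATP5PD, CLCA2 and the proline isomerase gene PPIB (139 against 757 CPM). Secreted proteins and the ribosomal and proteasomal genes of 17q12 stood out on the BT-474 side. S100A6 had a median of 130 UMIs in thinned MDA-MB-231 cells, beside 12 in BT-474 and 1 in MDA-MB-453. What part of its level in BT-474 and MDA-MB-453 was free RNA was not tested. Of the MDA-MB-453 genes, SUMO2, JPT1 and ATP5PD came from the distal run on chromosome 17 and LAGE3 from the end of X.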

How the data were processed

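The deposited counts are UMIs of 36601 genes and 12 oligos in 17605 barcodes, in a single matrix. The authors made them with Cell Ranger 6.1.2 on GRCh38, per the submitters' processing notes. How reads shared by similar genes were counted is not given in the sources used here. Kept barcodes were summed per line and scaled to CPM, so each value rests on 68.9 M or 75.5 M UMIs. Genes at 10 CPM in either line were compared on log2(CPM + 1). Free RNA was subtracted only as an alternative. Ratio intervals are exact binomial, level intervals exact Poisson and share intervals Clopper-Pearson. Positions are from GENCODE v29, matched by Ensembl ID for 8760 of 8764 measured genes, and promoters from RefSeq, GRCh38.p14. Scrublet in scanpy 1.11.5 and a marker score marked 87 of 8489 cells of the capture (1.02%) as doublets or mixed, and these were left out only as an alternative. Python 3.11.15 with numpy 2.4.6, scipy 1.17.1 and pandas 2.3.3 was used, with edgeR 4.0.16 for TMM. On simulated data with 200 genes changed by a known fold, 200 were called in the right direction. The simulated counts were Poisson draws with folds set past the 2-fold limit. They held no difference between cultures and no free RNA, so this run checks the code only.

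The genes compared and the 33 lists were chosen with earlier results of these data known. Named genes are a fixed panel, up to 3 called genes per side of each list, the 15 largest differences per side at 50 CPM or more, and the 10 highest genes per side that differ 4-fold. The others, such as LDHB's partner LDHA, STC2, SPRY4 and MCM5, were chosen after their values were seen. Some genes of these lists are counted with them and not reported here by name. With 1 culture a line, no test, pairing or left-out replicate was possible. Settings for cells, scaling, pseudocount and low values were varied.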

Additional observations from a re-analysis of the deposited data

How the results depend on the processing

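Of the results given above, no called gene turned to the other line under any of the 12 alternatives for cells, scaling, pseudocount and low values, of which the total without mitochondrial genes, 17q12 genes and MALAT1 was chosen after seeing the data. The number of calls followed the filter on low values: 1859 genes were higher in BT-474 and 2173 in MDA-MB-453 with no such filter, and 349 and 759 with a minimum of 50 CPM. That minimum also tests fewer genes of each list. It left 8 oestrogen receptor targets and 7 secreted genes higher in BT-474, 3 apocrine or hormone-responsive genes higher in each line, 1 gene of 17q23 higher in MDA-MB-453 and 0 G1/S genes higher in BT-474. The G1/S count in BT-474 was also 0 with no barcode filter and with a pseudocount of 5, and the G2/M count in BT-474 was 0 under both of these and with the mean over cells. With at most 10% mitochondrial UMIs and at least 5000 UMIs, 2 G2/M genes were higher in BT-474 and 8 in MDA-MB-453, on 206 BT-474 cells; the cause was not tested. The reduced total left 1 secreted gene higher in MDA-MB-453. The median of the mesenchymal list, 1.08, was -0.0051 with no filter on low values, since genes near 0 CPM then entered. The medians of the HOX list and of the immediate early and heat shock list changed sign under other scalings. No paired analysis was possible because each line was 1 culture, and no alternative replaces a second culture.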
